A study of Mus musculus with 30 samples.

Results

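The genes described were the 5 muscarinic acetylcholine receptor genes, Chrm1 to Chrm5, and the 2 cholinesterase genes, Ache and Bche, in the sclera of growing mice. A gene was followed through the transcript cluster (the probe set of 1 gene on the array) that carried its symbol and no other, and through the brightest such cluster where there were several. All 7 genes were found, among 19938 genes chosen in this way. The inbred albino strain Balb/cJ was studied, and whole sclera was taken at postnatal weeks 1, 2, 3, 6 and 8, with 6 arrays per week and 30 in all, each with total RNA of the sclera of 1 mouse. No mouse was treated, so the groups differed by age alone as far as the labels say, and the sources used here do not give their sex. The study asked which genes differ between these ages as the eye grows.

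Muscarinic receptors are G protein-coupled receptors for acetylcholine. The M1, M3 and M5 receptors act mainly through Gq and phospholipase C, while the M2 and M4 receptors act mainly through Gi and lower cyclic AMP. Acetylcholinesterase and butyrylcholinesterase end the signal by hydrolysing acetylcholine. Muscarinic antagonists such as atropine slow the progression of myopia, in which the eye grows too long and the sclera thins, and receptors of this family have been described on scleral fibroblasts.

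The arrays were not all independent, which bears on every test below. In all 35556 transcript clusters, the deposited value of week 2 replicate 4 equalled the mean of the other 5 arrays of week 2, with a largest difference of 8e-05 on the log2 scale. The mean of week 6 replicates 4 and 6 equalled the mean of week 6 in the same way, with a largest difference of 5e-05. The residuals around the week means therefore had a rank of 23, where a fit of 1 mean per week counts 25 degrees of freedom. Removing an additive batch term fitted together with week sets an array alone in its batch to its week mean, and the methods describe a removal of batch effects by scan date, but the scan dates were not used here and this origin was not tested. Ranges and SDs of week 2 below leave out replicate 4 (n = 5), and the calls were repeated in a fit with 1 term for the tied array and 1 for the tied pair.

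No member reached the study's threshold of a 2-fold difference with an adjusted p of 0.05 or less in any of the 10 comparisons between weeks (limma with Benjamini-Hochberg adjustment over all clusters). Between 2 and 6 of the 7 members had an unadjusted p under 0.05 in each comparison. The share of all clusters under that unadjusted p is not given here. An adjusted p of 0.05 or less alone, which is stricter, was reached by 30.8% to 68.2% of all clusters, depending on the comparison. Of all clusters, the 2-fold threshold with the adjusted p was passed by 11.6% at week 2 versus 1 and by 7.15% at week 3 versus 1. It was passed by 6.12% at week 6 versus 1 and by 7.19% at week 8 versus 1. It was passed by 4.39% at week 3 versus 2, by 6.73% at week 6 versus 2, by 2.09% at week 8 versus 2, by 7.58% at week 6 versus 3, by 5.12% at week 8 versus 3 and by 3.78% at week 8 versus 6. The greatest difference of a member was that of Bche at week 8 versus 1, 1.92-fold.

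Smaller differences were common, among the members as among all clusters. Without a fold threshold, 32 of the 70 pairs of member and comparison had an adjusted p of 0.05 or less, 13 with the later week higher and 19 with it lower. With terms for the tied arrays 29 of the 32 remained. The 3 lost were Chrm2 at week 6 versus 2 (adjusted p = 0.0688), Chrm5 at week 3 versus 2 (0.0674) and Bche at week 6 versus 1 (0.0872). Against week 1, 4 members passed at week 2 (68.2% of all clusters), 3 at week 3 (48%), 5 at week 6 (55.4%) and 6 at week 8 (54.1%). Against week 2, 3 members passed at week 3 (51.2% of all clusters), 2 at week 6 (49%) and 1 at week 8 (30.8%). Against week 3, 2 members passed at week 6 (55.4% of all clusters) and 4 at week 8 (43%), and 2 passed at week 8 versus 6 (36.2%). By the moderated F test over the 5 weeks 6 members passed, all but Chrm4, as did 91.3% of all clusters. In 7 of the 10 comparisons the members that passed made up a smaller share of the 7 than the share of clusters that passed.

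**Figure D1:**
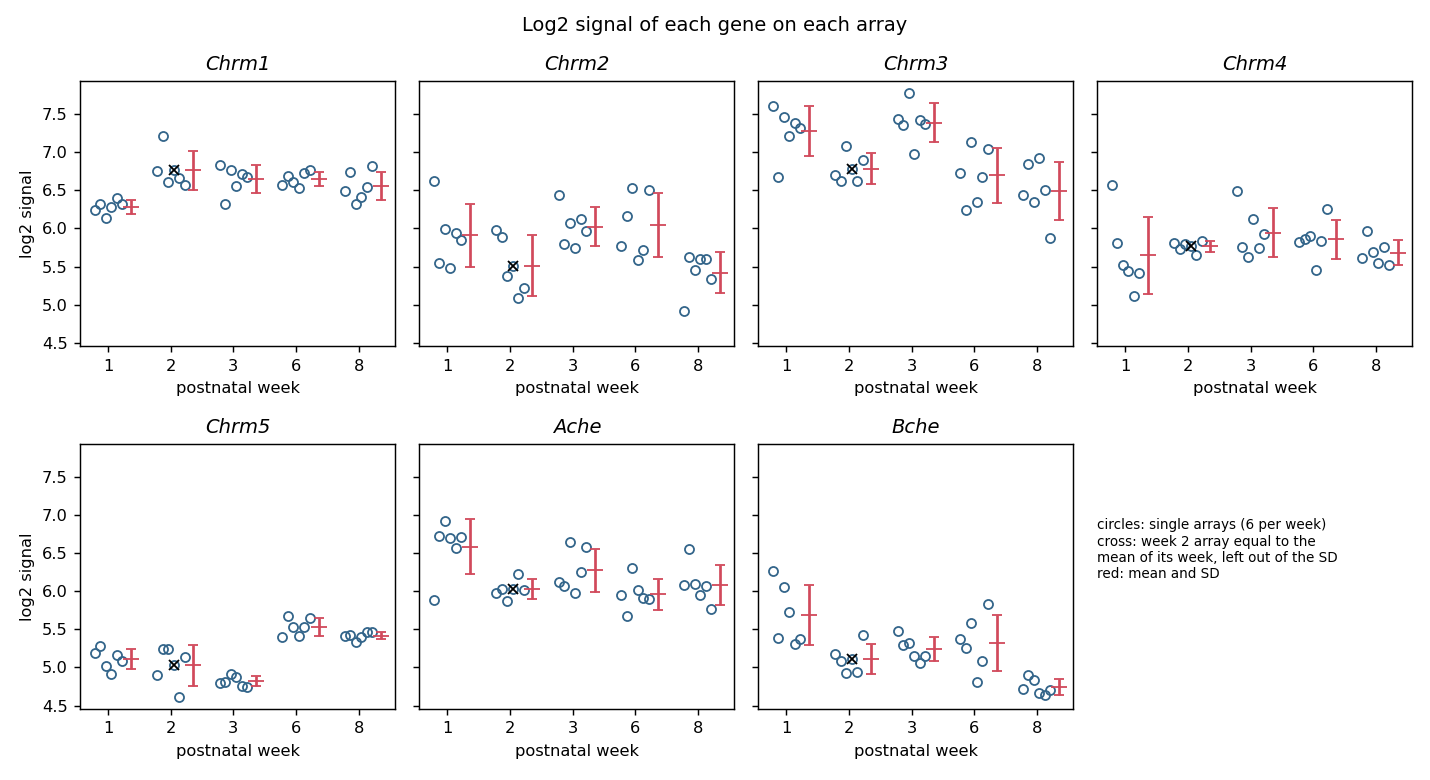
Log2 signal (vertical axis) of the 7 genes by postnatal week (horizontal axis), with a circle for each array, a cross on the week 2 array that equals its week mean, and red bars for the mean and SD (n = 6, and 5 in week 2). Chrm5 was higher on every array of weeks 6 and 8 than on any earlier array, and Bche was lowest at week 8, with a mean of 4.74.

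Chrm1, which encodes the Gq-coupled M1 receptor, had its lowest signal at week 1. The log2 signal ran from 6.14 to 6.40 with a median of 6.30 at week 1, and from 6.58 to 7.21 with a median of 6.66 at week 2. It ran from 6.32 to 6.84 (median 6.69) at week 3, from 6.53 to 6.77 (median 6.65) at week 6 and from 6.33 to 6.81 (median 6.52) at week 8. All arrays of weeks 2 and 6 lay above all arrays of week 1, while weeks 3 and 8 overlapped week 1. At week 2 the signal was 1.39-fold that of week 1, a log2 difference of 0.48 ± 0.10 (SE) with an adjusted p of 0.000122 by limma and 0.00045 with terms for the tied arrays. From week 2 on, no pair of weeks differed at the adjusted threshold. The call at week 8 versus 1 (log2 difference 0.27, adjusted p = 0.0217 by limma, 0.0296 with terms for the tied arrays) was lost when week 1 replicate 3, week 8 replicate 2 or week 8 replicate 6 was left out (adjusted p of 0.053, 0.0566 and 0.0689). Chrm1 is one of the brighter clusters, those with a mean above the median of all cluster means, which shifted by a median log2 of -0.15 at week 2 versus 1 and -0.03 at week 6 versus 1. With each array's interquartile range as a covariate, the difference at week 2 versus 1 was 0.17 (adjusted p = 0.316 by limma), and the calls at weeks 6 and 8 versus 1 were also lost (0.371 and 0.378). That range moved with week, as given further on, so age and array spread cannot be told apart in this fit.

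Chrm3, which encodes the Gq-coupled M3 receptor of smooth muscle and glands, was highest at week 3 and lowest at week 8. Its log2 signal ran from 6.67 to 7.61 (median 7.35) at week 1, from 6.62 to 7.08 (median 6.71) at week 2 and from 6.97 to 7.77 (median 7.40) at week 3. At week 6 it ran from 6.24 to 7.13 (median 6.70), and at week 8 from 5.88 to 6.93 (median 6.48). All arrays of week 8 lay below all arrays of week 3, and every other pair of weeks overlapped. The signal was 1.86-fold lower at week 8 than at week 3, a log2 difference of -0.90 ± 0.17 (SE, adjusted p = 0.000129 by limma, 0.000273 with terms for the tied arrays). It was 1.41-fold lower at week 2 than at week 1 and 1.52-fold higher at week 3 than at week 2 (adjusted p = 0.0127 and 0.00478 by limma, 0.0232 and 0.0108 with terms for the tied arrays). The call at week 2 versus 1 was lost after quantile normalization (log2 difference -0.36, adjusted p = 0.0585), and both calls were lost with the interquartile range covariate (0.25 and 0.309). Bulk tissue was measured, so fewer cells of a type and less RNA per cell cannot be told apart. The mean log2 signal of 8 endothelial markers was 8.75, 8.38, 9.16, 7.83 and 7.81 at weeks 1, 2, 3, 6 and 8, and that of 9 smooth muscle markers was 8.18, 7.92, 8.56, 7.80 and 7.85. Both lists were highest at week 3, as Chrm3 was. So was the list of 7 measured Schwann cell and myelin markers, with means of 7.38, 6.90, 7.63, 6.98 and 7.05. The interquartile range of the arrays, given further on, was highest at week 3 too. The 13 surface epithelium and gland markers took another course, with means of 8.41, 10.3, 10.5, 10.1 and 10.6 in the order of the weeks. That list was highest at week 8, where Chrm3 was lowest. The part of these tissues in the Chrm3 values was not tested.

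Chrm5, which encodes the Gq-coupled M5 receptor, had the smallest spread within weeks 3 and 8. Its log2 signal ran from 4.91 to 5.28 (median 5.12) at week 1, from 4.62 to 5.25 (median 5.14) at week 2 and from 4.75 to 4.92 (median 4.80) at week 3. It ran from 5.40 to 5.67 (median 5.53) at week 6 and from 5.34 to 5.47 (median 5.41) at week 8. Every array of weeks 6 and 8 lay above every array of weeks 1, 2 and 3. The signal was 1.64-fold higher at week 6 than at week 3, a log2 difference of 0.71 ± 0.09 (SE, adjusted p = 7.01e-08 by limma, 2.4e-06 with terms for the tied arrays). The difference between weeks 8 and 6 was -0.11 with a 95% interval of -0.29 to 0.06. The Chrm5 cluster lay below its array's median on all 30 arrays, and the dimmer clusters, those with a mean below the median of all cluster means, shifted by a median log2 of 0.19 at week 6 versus 3. After quantile normalization the difference at week 6 versus 3 was 0.51. Chrm5 lies within Aven, a gene for an apoptosis inhibitor, whose mean log2 signal was 6.72, 6.10, 6.69, 6.52 and 6.33 in the order of the weeks, a different course.

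Chrm2, which encodes the Gi-coupled M2 receptor of heart and parasympathetic endings, varied widely between mice. Its log2 signal ran from 5.48 to 6.62 (median 5.90) at week 1, from 5.09 to 5.98 (median 5.38) at week 2 and from 5.75 to 6.44 (median 6.01) at week 3. It ran from 5.58 to 6.53 (median 5.96) at week 6 and from 4.92 to 5.63 (median 5.52) at week 8. All arrays of week 3 lay above all arrays of week 8. The signal was 1.52-fold lower at week 8 than at week 3 and 1.54-fold lower than at week 6, log2 differences of -0.60 ± 0.19 and -0.62 ± 0.19 (SE, adjusted p = 0.0125 and 0.0114 by limma, 0.0176 and 0.0369 with terms for the tied arrays). The calls against week 2 and at week 8 versus 1 were lost when single arrays were left out. Without week 1 replicate 1, for example, the adjusted p at week 8 versus 1 was 0.116.

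Chrm4, which encodes the Gi-coupled M4 receptor, was the member for which no difference between weeks passed. The log2 signal ran from 5.11 to 6.57 (median 5.48) at week 1, and the medians of weeks 2, 3, 6 and 8 were 5.79, 5.84, 5.85 and 5.65. The arrays of all weeks overlapped. On 2 of the 30 arrays the Chrm4 cluster lay above its array's median. The F test over the 5 weeks had an adjusted p of 0.391, and the greatest difference, at week 3 versus 1, was 0.30 with a 95% interval of -0.04 to 0.64, so these arrays leave room for a difference of up to 0.64 on the log2 scale. Week 1 replicate 1, at 6.57, held the highest value of all 30 arrays. Without it the log2 differences from week 1 were 0.30 at week 2, 0.48 at week 3 and 0.40 at week 6, with adjusted p of 0.0491, 0.00455 and 0.0156 by limma.

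**Figure D2:**
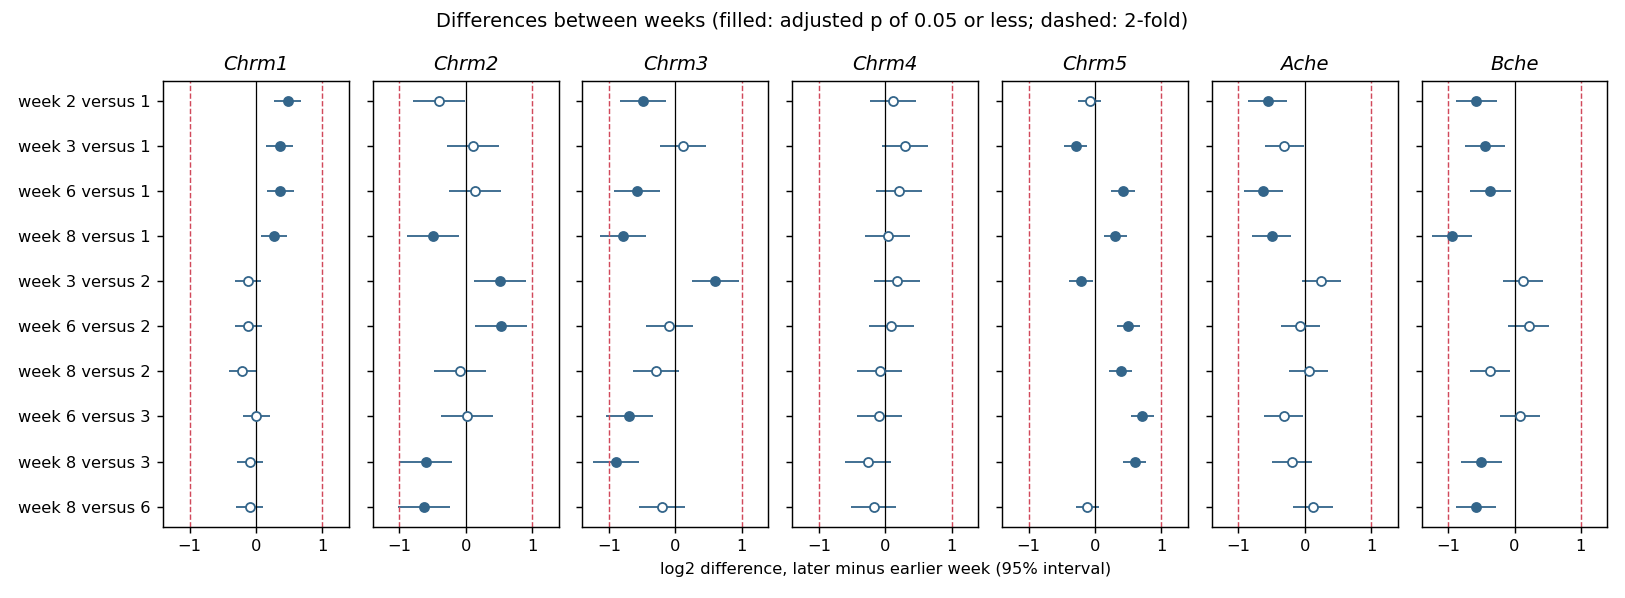
Log2 difference between weeks (horizontal axis, later minus earlier week, with 95% intervals from limma) for each gene and each of the 10 comparisons (vertical axis). Filled points have an adjusted p of 0.05 or less, the dashed lines mark a 2-fold difference, and no point reaches them.

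The start regions of both enzyme genes are shown because Ache and Bche were both highest at week 1. They are the 150 bases before the annotated start, from RefSeq (GRCm38.p6), with matches to the GC box (GGGCGG, either strand) and the E-box (CANNTG) in capitals. Ache lies at chr5:137288104-137288253 on the plus strand and Bche at chr3:73708416-73708565 on the minus strand.
Ache: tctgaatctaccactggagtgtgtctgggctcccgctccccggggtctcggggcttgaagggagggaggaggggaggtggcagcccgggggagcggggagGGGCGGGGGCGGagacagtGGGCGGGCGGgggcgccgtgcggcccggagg
Bche: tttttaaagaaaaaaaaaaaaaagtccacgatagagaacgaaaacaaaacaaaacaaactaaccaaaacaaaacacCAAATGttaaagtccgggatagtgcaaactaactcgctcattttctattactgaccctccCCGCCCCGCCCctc
The Ache window held 4 GC boxes, some of them overlapping, no E-box and 76% G and C. The Bche window held 2 overlapping GC boxes, 1 E-box and 38% G and C. Of the 32851 promoters in the table, 28.6% held a GC box and 47.7% an E-box in the same window. Promoters of 6 members were in the table, and a match is a description of these letters only.

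Ache, which encodes the enzyme that clears acetylcholine at synapses, was highest at week 1. Its log2 signal ran from 5.88 to 6.92 (median 6.70) at week 1, from 5.87 to 6.23 (median 6.02) at week 2 and from 5.97 to 6.65 (median 6.19) at week 3. It ran from 5.67 to 6.31 (median 5.92) at week 6 and from 5.77 to 6.55 (median 6.07) at week 8. At week 1, replicate 1 was lowest at 5.88 and the other 5 arrays lay above all arrays of weeks 2, 6 and 8. Against week 1 the signal was 1.47-fold lower at week 2, 1.54-fold lower at week 6 and 1.41-fold lower at week 8 (adjusted p = 0.00129, 0.000735 and 0.00517 by limma, 0.00329, 0.00414 and 0.00779 with terms for the tied arrays). With the interquartile range covariate the call at week 2 was lost (adjusted p = 0.068). At week 3 the log2 difference from week 1 was -0.31 (adjusted p = 0.0794), and -0.45 without week 1 replicate 1 (adjusted p = 0.00493). The mean log2 signal of 11 measured markers of peripheral neurons and axons was 6.77 at week 1 and lay between 5.73 and 5.99 later. In week 1 replicates 1 to 6, the means of these markers were 6.09, 6.14, 7.26, 7.01, 6.78 and 7.31. Ache was 5.88, 6.72, 6.92, 6.69, 6.57 and 6.71 in the same order. The 14 measured inner retinal neuron markers had means of 6.96, 6.68, 7.82, 7.52, 7.36 and 7.97 on these arrays. Both lists were lowest on replicates 1 and 2 and highest on replicate 6, so nerve and retina cannot be told apart here. The photoreceptor and inner retinal neuron marker lists were also highest at week 1, with means of 9.74 and 7.38. So were the striated muscle, retinal pigment epithelium and scleral fibroblast and matrix lists, with means of 10.8, 9.23 and 10.5. The part of any of these tissues in the Ache values was not tested.

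Bche, which encodes the broader esterase of plasma, glia and other cells, was highest at week 1 and lowest at week 8. Its log2 signal ran from 5.31 to 6.26 (median 5.56) at week 1, from 4.93 to 5.42 (median 5.09) at week 2 and from 5.06 to 5.48 (median 5.22) at week 3. It ran from 4.81 to 5.84 (median 5.31) at week 6 and from 4.63 to 4.90 (median 4.71) at week 8. All arrays of week 8 lay below all arrays of weeks 1, 2 and 3, and overlapped only week 6. The Bche signal was low, above its array's median on 1 of the 30 arrays. On the arrays of week 8, 20.6% to 24.7% of all clusters lay below it. The signal was 1.92-fold lower at week 8 than at week 1, a log2 difference of -0.94 ± 0.15 (SE, adjusted p = 9.88e-06 by limma, 2.57e-05 with terms for the tied arrays). Its 95% interval, from -1.25 to -0.64, includes a 2-fold difference. The call at week 3 versus 1 (adjusted p = 0.0154, and 0.0213 with terms for the tied arrays) was lost without week 1 replicate 1 (adjusted p = 0.0581), which held the highest Bche signal of that week.

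**Figure D3:**
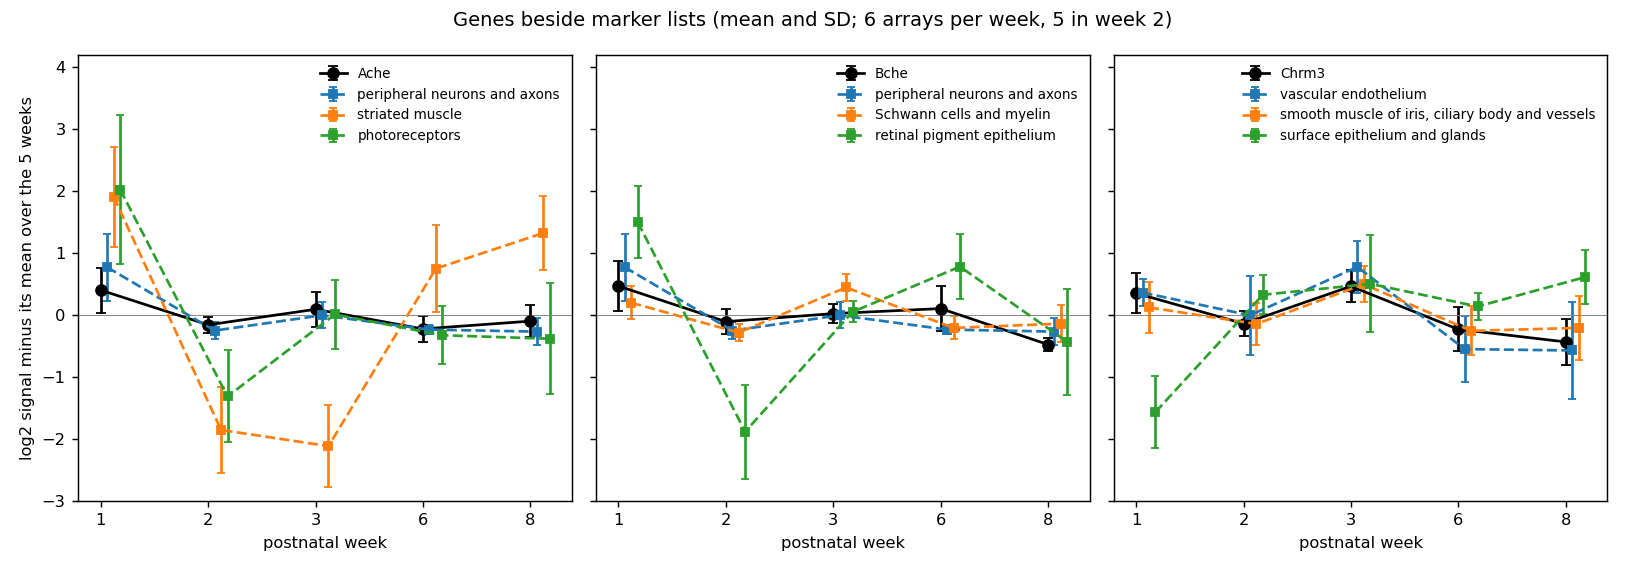
Log2 signal minus its own mean over the 5 weeks (vertical axis) by postnatal week (horizontal axis) for Ache, Bche and Chrm3 (black) and for marker lists (colours), as mean and SD over arrays (n = 6, and 5 in week 2). Ache, the axon markers and the photoreceptor list are highest at week 1, as is the striated muscle list, which is also high at weeks 6 and 8.

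For the labelled tissue, 12 scleral fibroblast and matrix markers were read, among them Col1a1, Dcn and Lum. Their mean log2 signal lay between 9.31 (week 2) and 10.5 (week 1). The striated muscle list had a higher mean at week 1, and the surface epithelium and gland list at each later week. The markers are therefore no check that the tissue was sclera alone. Marker lists of neighbouring tissues varied with week. The mean of 16 striated muscle markers was 10.8 at week 1, 7.02 at week 2, 6.76 at week 3, 9.63 at week 6 and 10.2 at week 8, and that of 11 measured photoreceptor markers was 9.74, 6.40, 7.72, 7.39 and 7.33. The list means of surface epithelium and gland markers were 8.41 at week 1 and between 10.1 and 10.6 later. The part of these tissues in the members' values was not tested. The interquartile range of an array's log2 values averaged 2.70, 2.36, 2.75, 2.44 and 2.53 in the order of the weeks, so it moved with week.

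**Figure D4:**
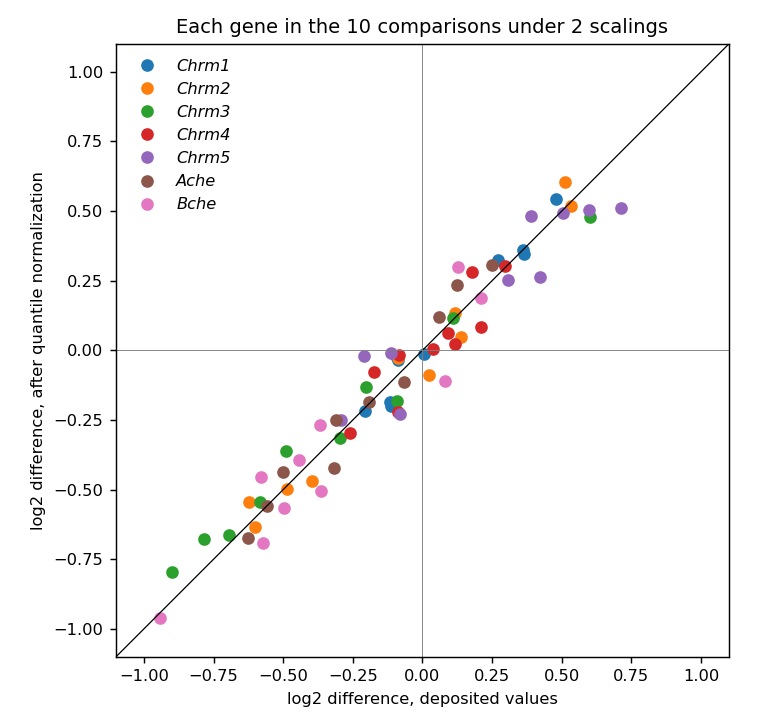
Log2 differences of the 7 genes in the 10 comparisons from the deposited values (horizontal axis) and after quantile normalization of the 30 arrays (vertical axis), with the line of equality. Most points lie near the line, and Chrm5 at week 6 versus 3 moves from 0.71 to 0.51.

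Of the other genes of cholinergic signalling, 65 of 67 listed were measured. At the 2-fold threshold 2 rose and 7 fell at week 2 versus 1, 13.8% of the list where 11.6% of all clusters were called. At week 3 versus 1, 2 rose and 2 fell (6.15% against 7.15%), at week 6 versus 1, 1 rose and 5 fell (9.23% against 6.12%), and at week 8 versus 1, 2 rose and 6 fell (12.3% against 7.19%). At week 6 versus 3, 6 fell (9.23% against 7.58%), and the other comparisons called 2 or fewer. Their shares were 3.08% against 4.39% at week 3 versus 2, 3.08% against 6.73% at week 6 versus 2 and 1.54% against 2.09% at week 8 versus 2. They were 1.54% against 5.12% at week 8 versus 3 and 0% against 3.78% at week 8 versus 6. All these calls were also made with terms for the tied arrays. The shares are a description, and no test of the list was run. For synthesis and uptake, the choline transporter-like gene Slc44a4 rose 2.89-fold at week 2 versus 1 and 3.65-fold at week 8 versus 1, and no other of its 6 measured list genes was called, among them Chat, the acetylcholine-synthesising enzyme, with its highest week mean, 4.91, at week 6. Among the 4 cholinesterase anchors, Hspg2, the perlecan gene, fell 3.24-fold and Dag1, the dystroglycan gene, fell 2.35-fold at week 6 versus 3, while Colq and Prima1, which tether acetylcholinesterase, were not called in any comparison. On the Gq branch, Itpr3, an inositol trisphosphate receptor gene, rose 2.53-fold at week 2 versus 1, while Plcb4, a phospholipase C gene, fell 2.53-fold and Prkcb, a protein kinase C gene, fell 2.74-fold. Prkcb rose 3.61-fold at week 6 versus 2 and was called in 4 comparisons. On the Gi branch, Gnao1, a G protein alpha subunit gene, fell 3.43-fold and Adcy1, an adenylyl cyclase gene, fell 2.40-fold at week 2 versus 1. Of the regulators, Rgs2 and Rgs5, which encode inhibitors of G protein signalling, fell 2.05-fold and 2.19-fold at week 8 versus 1. The receptor kinase gene Grk4 fell 2.18-fold there, at a low signal, with week means of 4.82 and 3.70 at weeks 1 and 8. Chrna6, a neuronal nicotinic subunit gene, fell 2.34-fold at week 2 versus 1, and its week 1 arrays ran from 4.93 to 7.20. Slc44a4 and Itpr3 had their lowest week means at week 1 (5.91 and 7.51), as the surface epithelium and gland list did. Gnao1, Adcy1 and Chrna6 had their highest there (9.07, 7.77 and 6.09), as the photoreceptor list and others did. The part of tissue content in the values of these genes was not tested.

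Likeness of pattern had been planned only for members called in a comparison, and none was called. It is a description outside that plan, chosen after the values were seen. Over the 30 arrays the gene most like Ache was Cacna1a, a calcium channel gene (Pearson's r = 0.928, and 0.902 within weeks). For Chrm3 it was Efr3b (r = 0.925, and 0.843 within weeks). The others were Il9r for Chrm1 (r = 0.875), Mir211 for Chrm2 (0.766), Opn4 for Chrm4 (0.734), Krt71 for Chrm5 (0.907) and Dipk1a for Bche (0.816). These are the highest of 19937 correlations each, over arrays that share age, array spread and tissue content.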

How the data were processed

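Total RNA of single sclerae was measured on Affymetrix Mouse Gene 1.0 ST arrays. The authors deposited log2 signal per transcript cluster. According to the study's methods, signals were summarised by robust multiarray averaging and scan-date batch effects were then removed. GCRMA and Partek 6.5 appear in the notes that the submitters gave GEO, which leaves the summary method open. Scan dates were not used here. The number of arrays, not read depth, limits precision.

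Values were used as deposited in limma 3.58.1 (R 4.3.3), with 1 mean per week over 30 arrays, moderated variances, 10 contrasts and Benjamini-Hochberg adjustment over 35556 clusters. This design assumed independent arrays, so a fit with 2 added terms for the tied arrays is given beside it. It was added after the dependence was seen. Gene symbols came from the platform annotation. The fit of 1 mean per week was tested on simulated data with independent arrays. That test does not cover the dependence between the real arrays, nor the fit with added terms. Alternatives covered scaling, weights, the samples fitted, moderation, filters, thresholds and leaving out arrays. Members and lists were chosen with earlier results of these data known. The genes named were the members and, from the cholinergic lists, up to 3 called genes of greatest difference per list and comparison, of which examples are given. The labels do not say more of each sample than age and replicate number. The p-values measure the spread between arrays of single mice in the deposited values, which were not all independent. According to the study's methods, the mice came from the same family.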

Additional observations from a re-analysis of the deposited data

Results flagged for a closer look

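For each gene and week the highest or lowest array was compared with the others by Dixon's ratio, at its 95% critical value. Of 35 groups 2 were marked, where chance gives 1.75. Chrm1 at week 2 was 7.21 in replicate 2, and the next array was at 6.76. Week 2 was tested on the 5 arrays with values of their own. Ache at week 1 was 5.88 in replicate 1, and the next array was at 6.57.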

How the results depend on the processing

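The count of members called at 2-fold was 0 in every comparison, and it was also 0 under median centring, quantile normalization, array quality weights, terms for the tied arrays and the replicate block. With no fold threshold it was 4, 3, 5 and 6 at weeks 2, 3, 6 and 8 versus 1, 3, 2 and 1 at weeks 3, 6 and 8 versus 2, 2 and 4 at weeks 6 and 8 versus 3, and 2 at week 8 versus 6. With a fold threshold of 1.5 it was 1 at week 6 versus 1, 2 at week 8 versus 1, 1 at week 3 versus 2, 2 at week 6 versus 3, 3 at week 8 versus 3 and 1 at week 8 versus 6. With each array's interquartile range as a covariate it was 1 at week 2 versus 1, at week 3 versus 2 and at week 8 versus 3, Chrm2 each time. The shares of all clusters called at 1.5-fold or with that covariate are not given here, so those counts have no background beside them. Leaving out 1 array gave 0 to 1 at week 8 versus 1, where Bche reached 2-fold.

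The count passing the adjusted p became 5, 5 and 4 with array quality weights (estimated gene by gene, since the default estimate did not converge) at week 3 versus 1, week 3 versus 2 and week 8 versus 2. With the interquartile range covariate it became 1 at week 6 versus 1 and 1 at week 3 versus 2, but this range moves with week, so spread and age cannot be told apart. Of the 32 calls, that covariate kept 21, and 10 of the others kept their direction but lost the call (Chrm1 at weeks 2, 6 and 8 versus 1, Chrm3 at weeks 2 and 6 versus 1 and week 3 versus 2, Chrm5 at weeks 6 and 8 versus 1, Ache at week 2 versus 1 and Bche at week 6 versus 1, adjusted p from 0.065 to 0.378). Quantile normalization lost Chrm3 at week 2 versus 1 and Chrm5 at week 3 versus 2 (adjusted p = 0.0585 and 0.834). With terms for the tied arrays the count was 1 at week 6 versus 2. At week 8 versus 2 it was 2 when only those weeks were fitted and 2 with the replicate block. Leaving out 1 array gave 1 to 3 at week 3 versus 2, 1 to 2 at week 6 versus 2 and 1 to 2 at week 8 versus 2. Single arrays also decided Ache at week 6 versus 3 (adjusted p 0.0638, and 0.0278 to 0.0499 without week 1 replicate 1, week 3 replicate 2 or 4, week 6 replicate 3 or week 8 replicate 2) and Bche at week 6 versus 1 (0.0406, and 0.0646 to 0.14 without week 1 replicate 1, 3 or 4 or week 6 replicate 2, 4 or 5). Of the clusters above the median signal, 2 members were tested and 2 passed the F test. The difference of Chrm5 at week 3 versus 2 turned to 0.019 with a common interquartile range and to 0.095 with that covariate (adjusted p = 0.856 and 0.678). Replicate numbers do not pair the mice: deviations of same-numbered arrays correlated between -0.41 and 0.46 (median 0.016), and the replicate block kept all 32 calls. Each member had 1 cluster of its symbol, so no other cluster could be compared. The causes of these changes were not tested.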
